A study of Mus musculus with 3 samples.

Results

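The locus described here holds Six3, its divergent long noncoding RNA (lncRNA) Six3os1, and Six2, on mouse chromosome 17. Its members are all called regions of 2 chromatin marks that touch the mm9 window from 85930000 to 86150000 (positions counted from 1). This window of 220 kb was set around the genes, with earlier results of these data known. It held 5 of the 21998 H3K4me3 regions and 40 of the 117512 H3K27me3 regions of the series. Of the 40, 39 lay wholly inside and 1 crossed the end of the window. The regions come from chromatin immunoprecipitation followed by sequencing (ChIP-seq) of neurospheres, floating cultures grown from neural stem cells, that were derived from the subventricular zone of male wild-type (WT) C57BL/6 mice. There was 1 library for H3K4me3 and 1 for H3K27me3, both from bulk cells. The third sample of the series, input DNA, was not analysed here. The question named by the submitters is which chromatin state the promoters of lncRNAs have in adult neural stem cells.

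Six3 and Six2 encode homeodomain transcription factors of the sine oculis family. Six3 acts in the development of the forebrain and the eye, where it represses Wnt signalling, and Six2 is known for keeping nephron progenitors of the kidney undifferentiated. Six3os1 is transcribed away from Six3 on the opposite strand and has been studied in the retina and in neural stem cells. H3K4me3, trimethylated lysine 4 of histone H3, marks promoters that are active or poised. H3K27me3, trimethylated lysine 27 of histone H3, is laid down by Polycomb repressive complex 2 and lies over silent developmental genes. In mammals both marks are concentrated at promoters rich in CpG dinucleotides.

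The promoters of the 3 genes are shown because they differ in CpG content. Whether this bears on the marks at this locus was not tested. They are RefSeq sequences of build GRCm38.p6, 300 bases each, from 250 before to 50 after the start, read 5′ to 3′ on the strand of the gene, with CpG dinucleotides in capitals. Their positions belong to that build and cannot be set against the mm9 positions used everywhere else.
Six3os1 (GRCm38.p6 chr17:85618347-85618646, minus strand): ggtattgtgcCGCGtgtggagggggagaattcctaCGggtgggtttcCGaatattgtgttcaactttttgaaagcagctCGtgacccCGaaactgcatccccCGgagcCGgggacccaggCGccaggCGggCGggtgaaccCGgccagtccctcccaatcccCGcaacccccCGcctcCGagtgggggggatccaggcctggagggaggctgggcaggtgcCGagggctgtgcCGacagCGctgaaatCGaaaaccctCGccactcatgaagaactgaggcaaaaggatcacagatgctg
Six3 (GRCm38.p6 chr17:85620584-85620883, plus strand): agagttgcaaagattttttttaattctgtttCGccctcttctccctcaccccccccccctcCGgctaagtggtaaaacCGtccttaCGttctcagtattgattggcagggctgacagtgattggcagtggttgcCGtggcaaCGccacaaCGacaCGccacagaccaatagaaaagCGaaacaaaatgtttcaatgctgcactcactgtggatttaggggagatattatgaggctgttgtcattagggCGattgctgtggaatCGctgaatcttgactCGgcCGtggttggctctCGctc
Six2 (GRCm38.p6 chr17:85688205-85688504, minus strand): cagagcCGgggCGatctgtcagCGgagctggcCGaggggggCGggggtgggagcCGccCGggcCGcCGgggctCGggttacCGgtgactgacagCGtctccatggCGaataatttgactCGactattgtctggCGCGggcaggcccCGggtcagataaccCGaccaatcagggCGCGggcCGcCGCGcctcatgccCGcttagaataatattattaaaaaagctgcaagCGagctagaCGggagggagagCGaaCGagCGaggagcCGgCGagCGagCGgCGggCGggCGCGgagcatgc

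Six2 had the densest promoter of the 3. It held 37 CpG dinucleotides at a GC content of 67.3%, and only 5.58% of the 32851 mouse promoters in the RefSeq table held as many. Six3os1 had 20 CpG dinucleotides and a GC content of 63%, with 26.5% of promoters holding as many. Six3 had 14 at a GC content of 50%, and 36.3% of promoters held as many. The median promoter had 7. The ratio of observed to expected CpG was 1.13 for Six2, 0.747 for Six3 and 0.675 for Six3os1, above the median of 0.384 in each case. Short motifs were searched on both strands after the sequences had been seen. CCAAT, which occurs in 37.4% of promoters, was found 3 times in that of Six3 and 1 time each in those of Six3os1 and Six2. At least 3 occurrences were found in 3.37% of promoters. GGGCGG, present in 35.7% of promoters, was found 3 times at Six2, 1 time at Six3os1 and 0 times at Six3. At least 3 occurrences of GGGCGG were found in 10.7% of promoters. TATAAA, present in 13.6% of promoters, was found in none of the 3 windows.

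In RefSeq the order along the chromosome is Six3os1, Six3, Six2 and then CJ186046Rik, another lncRNA. Six3os1 and Six3 point away from each other, and so do Six2 and CJ186046Rik. The 3 promoter entries of CJ186046Rik share unbroken runs of 253 to 261 bases with the Six2 promoter, read on the opposite strand. Six2 and this lncRNA therefore start from nearly the same CpG-dense sequence. The promoters of Six3os1 and Six3 share no run longer than 8 bases in this comparison and are separate stretches.

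The marks divided the locus into a Six3 side and a Six2 side. On the Six3 side lay a 13.7 kb H3K4me3 region, among the widest of the whole list, of which H3K27me3 covered 22.5%. On the Six2 side lay a 2.29 kb H3K4me3 region that H3K27me3 covered over 95.4%, inside a 38.6 kb H3K27me3 domain. The other 3 H3K4me3 regions were between 817 and 1339 bp wide. Numbered along the chromosome, the wide one is region 1 and that of the Six2 side is region 5. The sides are named from order and spacing only. The window was defined as holding Six2 about 70 kb beyond Six3, and the midpoints of regions 1 and 5 were 67.7 kb apart. Region 1 is 13.7 kb wide and region 4 lies 1.36 kb from region 5, so this spacing does not single out region 5. Gene positions on mm9 were not used here, so no region is assigned to a start site.

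**Figure D1:**
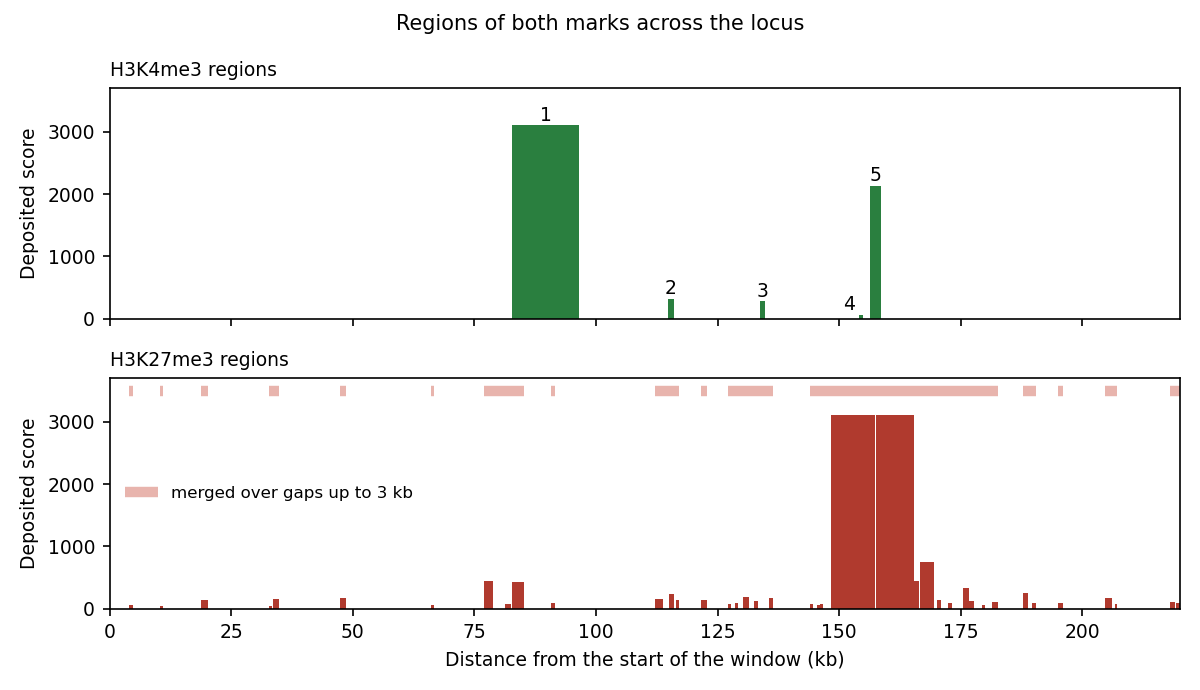
Deposited scores of the 5 H3K4me3 regions (upper panel, numbered) and the 40 H3K27me3 regions (lower panel) against distance from the start of the 220 kb window in kb, with bar widths to scale and pale bars for H3K27me3 regions merged over gaps of up to 3 kb. Scores cannot be compared between the panels. The only H3K4me3 region at the score of 3100 is region 1, and both H3K27me3 regions at 3100 lie around region 5.

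H3K27me3 touched 4 of the 5 H3K4me3 regions (80%), against 33.5% of all H3K4me3 regions. The 5 are neighbours in the same window, and regions 4 and 5 share an H3K27me3 region. They are not independent, so no interval is given. At least 50% of the region was covered in 3 of the 5, against 25.3% of all. The whole region was covered in 1 of the 5, against 9.55% of all. That 1 was region 4, with a score of 65.4, where the lowest score of the list was 50.01. The 5 also differed from the list in score, with 1 of the 5 at 3100 or above, against 52.6% of all. The 5 regions summed to 19.2 kb, of which 7.09 kb or 36.9% lay in H3K27me3 regions, against 20.1% over all H3K4me3 regions. This sum was made of unlike parts, since region 1 alone held 71.4% of the base pairs. The share was 20.8% when only regions covered over at least 50% of their length were counted as covered, which leaves out region 1. Without it the other 4 regions were covered over 73.0% of their 5.48 kb. With 1 library per mark no replicate error exists, and no test was made. The cells were sampled in bulk, so a place with both marks may hold them in different cells or on different alleles.

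Region 1, on the side of Six3 and Six3os1, ran from 86012802 to 86026517 on mm9. Its width of 13.7 kb ranked 13 among the 21998 H3K4me3 regions, where the median was 1988 bp. Its score of 3100 is the value at which scores pile up in the list, a level reached by 52.6% of H3K4me3 regions. Within the locus it was the only region at that level. It was also wider than the other 4 together.

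H3K27me3 was unevenly laid along region 1. Its first 2.38 kb lay under an H3K27me3 region with a score of 422 that began 11 bp earlier. The next 5.60 kb had no H3K27me3 region. A narrow H3K27me3 region of 703 bp followed, from 86020780 to 86021482, with a score of 89.6, below the median of 112 of its list. The last 5.04 kb had none. The start of region 1 and that of the H3K27me3 region thus nearly coincided. Beyond the other end of region 1 the next H3K27me3 region was far away. The stretch that began inside region 1 and held no H3K27me3 region was 20.6 kb long. It went on to 86042103 and was the longest in the window. Stretches at least as long made up 19.2% of all gaps between H3K27me3 regions in the genome, so its length was not unusual for the list.

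**Figure D2:**
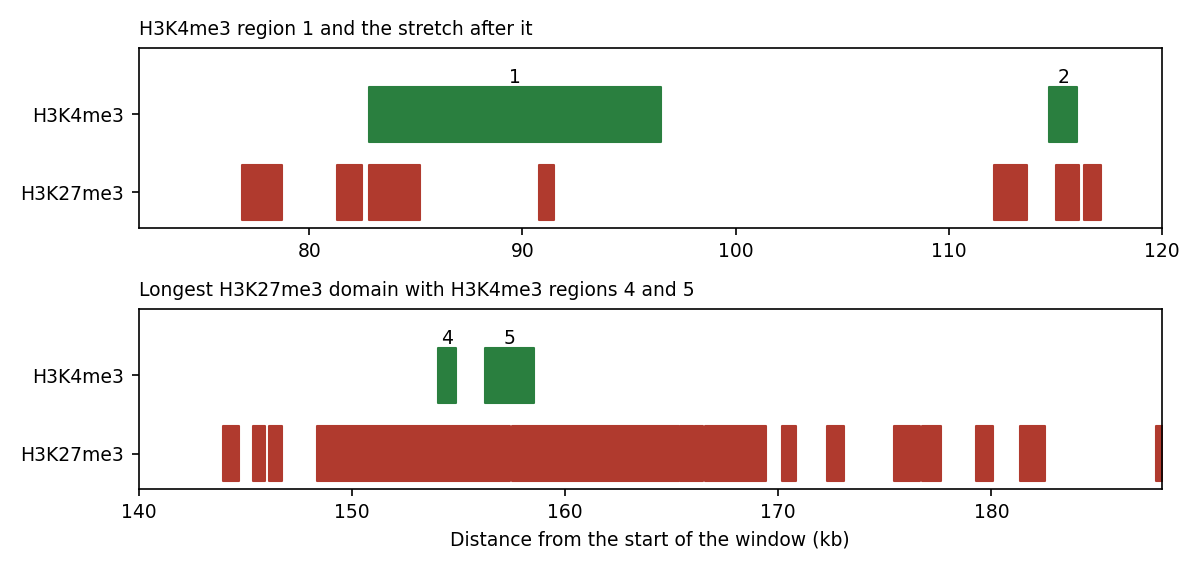
Positions of H3K4me3 (green) and H3K27me3 (red) regions in 2 parts of the locus, each 48 kb long, in kb from the start of the window. H3K27me3 overlies the start and a narrow stretch of region 1, and covers regions 4 and 5 except for a gap of 105 bp in region 5 that is too thin to see.

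The flanks of region 1 differed from each other. H3K27me3 regions took up 70.6% of the 1 kb before it and 35.6% of the stretch from 1 to 5 kb before it. On the other side the share was 0 up to 10 kb. It was then 28.1% from 10 to 20 kb. Over all H3K4me3 regions that carry H3K27me3, the share within 1 kb was 44.6% before and 44.2% after the region. Merging H3K27me3 over gaps of up to 3 kb gave a domain of 8.32 kb, from 86006862 to 86015182, that ended inside region 1. It consisted of 3 regions, the highest with a score of 451, and covered no other H3K4me3 region.

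Among H3K4me3 regions of 10 kb or more, H3K27me3 regions were mostly either absent or spread over nearly everything. The list held 34 H3K4me3 regions of 10 kb or more, and all of them were at the top score of 3100 or above. No H3K27me3 region touched 21 of them. H3K27me3 regions covered 90% or more of 8, and over 0 and up to 25% of 5, with 0 H3K4me3 regions in between. Region 1 belonged to the last group. Its 22.5% was the highest of those 5, and the others had 19.8%, 8.99%, 5.90% and 3.35%. The limits of 10 kb and of these groups were chosen after the values had been seen. Among regions of 5 to 10 kb, coverage in between did occur, for example 41.2% at a width of 8.59 kb and 63.8% at 7.25 kb. A domain of 20 kb or more touched 8 of the 34, lay within 50 kb of 7 more, region 1 among them at 47.4 kb, and was farther off for 19.

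**Figure D3:**
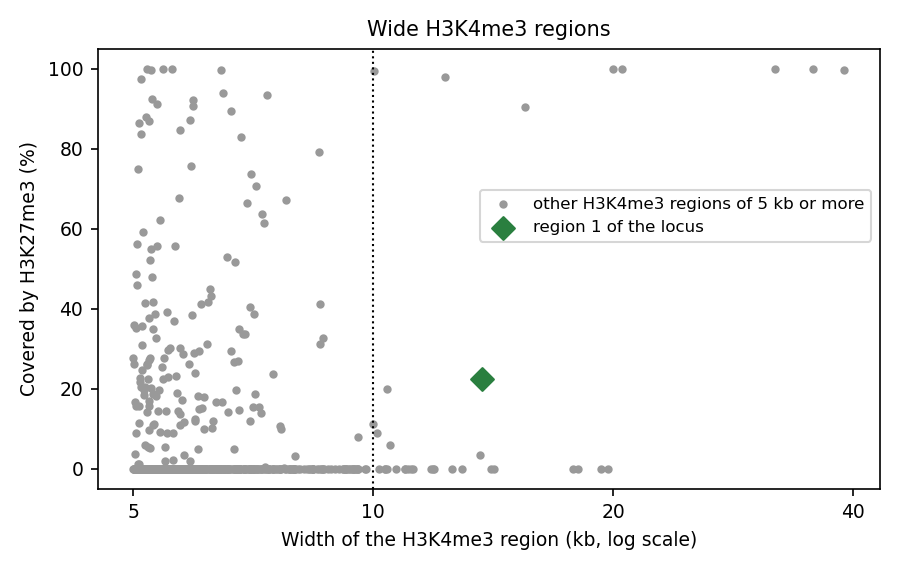
Share of each H3K4me3 region of 5 kb or more that H3K27me3 covered (%), against its width (kb, log scale), with 1 point per region, region 1 as a diamond and a dotted line at 10 kb. To the right of the line the points lie at 0, at or above 90.3%, or, for 5 regions, between 3.35% and 22.5%, where region 1 is the uppermost.

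Regions 2 and 3 lay between the sides and were small. Region 2 ran from 86044693 to 86046031 with a score of 320, and H3K27me3 covered 1000 of its 1339 bp, or 74.7%. The uncovered 339 bp formed its first part. Region 3 ran from 86063766 to 86064803 with a score of 281. It was the only H3K4me3 region of the locus that no H3K27me3 region touched. However, H3K27me3 regions ended 393 bp before it and began 840 bp after it. Region 3 therefore sat in a gap of 2.27 kb within a broken domain of 9.21 kb, of which 42.9% was covered. Scores below those of regions 2 and 3 were held by 26.5% and 24.9% of the H3K4me3 list. At most 3 kb separates the H3K27me3 regions that make up such a domain, so the gap at region 3 is closed when they are merged and region 3 then counts as covered.

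Regions 4 and 5 shared the Six2 side and were 1.36 kb apart. Region 4 ran over 817 bp from 86084061 to 86084877 and was wholly covered by H3K27me3. Its score of 65.4 was low, with only 4.55% of the H3K4me3 list below it. Region 5 ran over 2289 bp from 86086240 to 86088528 with a score of 2135, below the top level. H3K27me3 covered its first 1158 bp and its last 1026 bp, and the 105 bp in between, from 86087398 to 86087502, lay in no called region. The widest H3K27me3 region of the locus ends there and the next widest begins. That gap decides whether region 5 is counted as wholly covered, and its width is small beside the regions at its sides.

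Region 5 can be set beside the 3191 H3K4me3 regions of which H3K27me3 covers 90% or more. Their median width was 1456 bp, and 84.1% of them were narrower than region 5. Their median score was 649, and 72.3% of them had a lower score. Regions at the top score made up 20.5% of them. Region 5 was thus a wide and high-scoring member of that class, though not at its upper end. Region 4 lay on the opposite side of both medians.

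The H3K27me3 domain of the Six2 side ran from 86073938 to 86112531, a length of 38.6 kb. It was built from 13 of the 40 H3K27me3 regions, which covered 73.1% of it, and it held regions 4 and 5. It ranked 693 by length among 53714 domains made in the same way, so that 1.29% of domains were at least as long. Of the 658 domains of 30 to 50 kb, 52.7% held an H3K4me3 region and 20.1% held at least 2. Their median coverage was 72.3%. In coverage the domain was therefore close to the median of domains of its length. Its length was 22.5 kb with a merging gap of 1 kb, unchanged at 5 kb and 95.1 kb at 10 kb. It was also 22.5 kb when only the upper 50% of H3K27me3 regions by score, or those with a score of at least 100, were used.

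The inside of this domain was a dense core with broken margins. From 86078369 to 86099435, 4 H3K27me3 regions followed each other with gaps of 105, 42 and 92 bp, giving a core of 21.1 kb that was covered over 98.9%. Merged over gaps of up to 200 bp, a limit chosen after the gaps had been seen, only 0.166% of the 103271 resulting stretches were at least as long, and the core ranked 171. It held 37.4% of the H3K27me3 base pairs of the window. Its first 2 regions, 9.03 and 7.87 kb wide, both had the score of 3100. They were the only H3K27me3 regions of the locus at the top score, 2 of 40 against 2.55% of the list. The following 2 were 1.05 and 2.89 kb wide, with scores of 444 and 751. Around the core the remaining 9 regions of the domain were 552 to 1215 bp wide and scored from 55.3 to 326.

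The margins of the domain on the sides of the core differed. Before the core, 3 narrow regions with scores of 65.4 to 76 made up the first margin, with a gap of 1.66 kb between them and the first region of the core, which had the score of 3100. The 7.58 kb before these 3 regions had no H3K27me3 region. After the core, 6 regions were spread over 13.1 kb with gaps of 119 bp to 2.35 kb. The last was followed by 5.20 kb without an H3K27me3 region. Region 5 did not lie in the middle. The domain reached 12.3 kb before it and 24.0 kb after it.

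Around region 5 the share of base pairs in H3K27me3 regions was above the mean of H3K4me3 regions with both marks in every distance class up to 50 kb except that from 10 to 20 kb before it. All base pairs up to 5 kb on either side lay in H3K27me3 regions, where that mean was 29.9% (before) and 29.5% (after) at 1 to 5 kb. At 5 to 10 kb the share was 66.8% before and 97.3% after it, against 23.7% and 23.5%. At 10 to 20 kb it was 15.6% before and 44.2% after, against 20.4% and 19.96%. At 20 to 50 kb it was 28.2% before and 22.4% after, against 16.6% and 16.7%. Region 5 lies in the core of the domain, so full coverage close to it follows from that position. The mean is over all 7363 H3K4me3 regions that share at least 1 bp with H3K27me3, not only those covered over 90% or more. These are values of 1 locus beside a mean, with no measure of error.

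**Figure D4:**
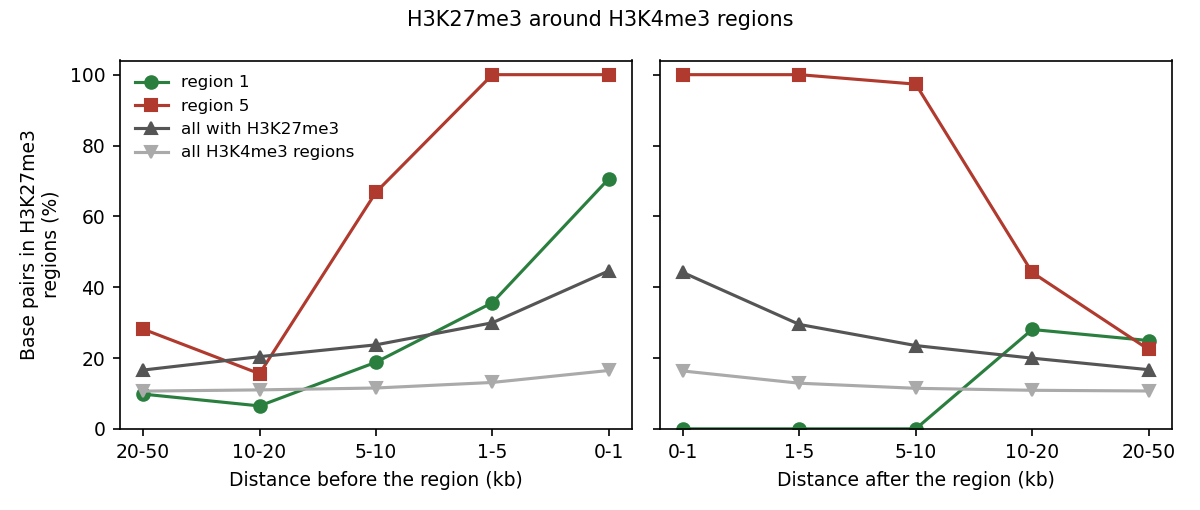
Base pairs in H3K27me3 regions (%) by distance from the edge of the H3K4me3 region (kb, in 5 distance classes of unequal width), before it (left) and after it (right), for region 1, region 5, all 7363 H3K4me3 regions with H3K27me3 and all 21998. Region 5 stays at 100% up to 5 kb on both sides, while region 1 rises to 70.6% on the left and is at 0 up to 10 kb on the right.

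Outside the domain the locus carried scattered H3K27me3. The 82.8 kb before region 1 held 10 H3K27me3 regions and no H3K4me3, and 11.3% of it was covered. The 47.4 kb between region 1 and the domain were covered over 18.1% by 9 regions. The 37.5 kb after the domain were covered over 17.1% by 7. The 27 H3K27me3 regions outside the domain had a median width of 950 bp and a median score of 119, beside 878 bp and 112 for the whole list. The highest score among them was 451, at the region from 86006862 to 86008745 shortly before region 1. In width and score they were thus close to the medians of the list. Gaps between neighbouring H3K27me3 regions had a median of 1.66 kb in the window and 2.35 kb in the genome.

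In total 55.6 kb or 25.3% of the window lay in H3K27me3 regions, against 5.68% of chromosomes 1 to 19, X and Y and 6.86% of chromosome 17. When these chromosomes were cut into 11995 windows of the same length, the median window was 1.38% covered, and 725 windows (6.04%) reached the level of the locus. All windows from the start of each chromosome to its last region were counted, including any without sequence in which regions could be called. The window of the locus was set around its genes, and these windows were not. The locus thus belonged to the upper part of the genome for H3K27me3 without being among the extremes. As for H3K4me3, 11.9% of windows had at least 5 regions. An H3K4me3 region of 10 kb or more and an H3K27me3 domain of 20 kb or more occurred in the same window in 12 cases. In all, 34 windows touched such an H3K4me3 region and 1431 such a domain. The 12 were not split by whether the H3K4me3 region lay inside the domain or apart from it, as at this locus. Of the 34 H3K4me3 regions of 10 kb or more, 8 touched such a domain, and H3K27me3 covered 90% or more of each of these.

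**Figure D5:**
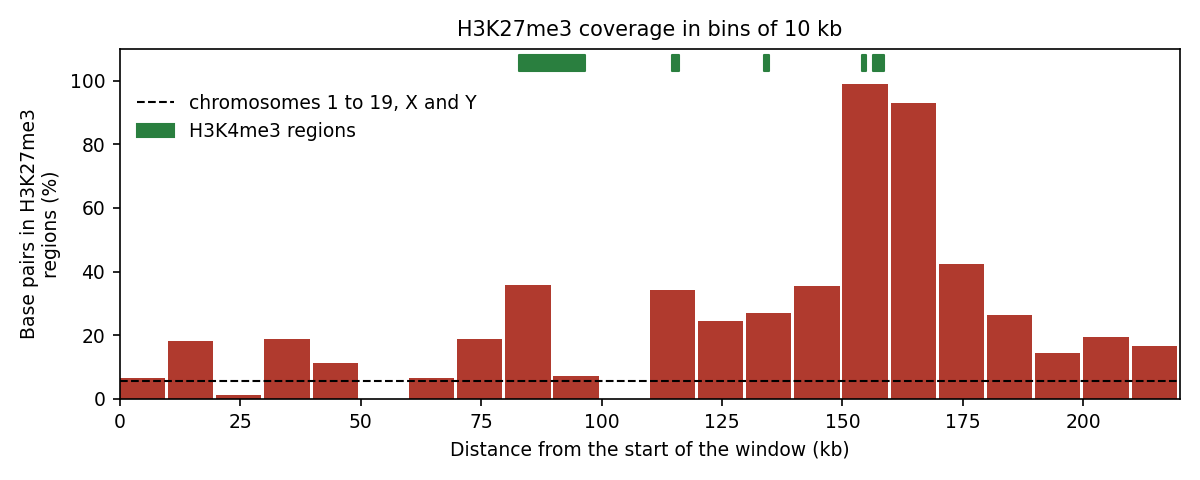
Base pairs in H3K27me3 regions (%) in 22 bins of about 10 kb across the window, against distance from its start in kb, with H3K4me3 regions as green bars on top and a dashed line at the 5.68% of chromosomes 1 to 19, X and Y. The bins from 150 to 170 kb reach 98.95% and 93.0%, all others stay at or below 42.3%, and 2 bins are at 0.

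From the side of H3K27me3, 5 of the 40 regions touched H3K4me3 (12.5%), against 7.08% of the whole list. The 40 are neighbours in the same window and not independent, so no interval is given. These 5 were 2 at region 1, 1 at region 2 and the 2 widest regions of the locus, which between them touched regions 4 and 5. The window has no natural edge in these data. The nearest H3K4me3 regions outside it lay 75.1 kb before its start (85853603 to 85854930, 50.8% covered by H3K27me3) and 48.3 kb after its end (86198309 to 86199876, 98.5% covered). The nearest H3K27me3 regions outside lay 25.2 kb before it and 2.52 kb after it.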

How the data were processed

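The members and the window were chosen with earlier results of these data known. The authors deposited 1 file of called regions per mark, with a score for each region. Peak names in the deposited files are those of MACS, and the submitters' processing notes name Bowtie 1.1.2 and mm9. The caller's version, threshold and control were not given in the sources used here. No scale is stated for the score, which starts at 50.01 (H3K4me3) and 50 (H3K27me3), piles up at 3100 and was compared within a list only. Depth was not used here, so no detection limit can be given, and a place without a region is not shown to lack the mark.

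Regions overlapped when they shared at least 1 bp. Domains are H3K27me3 regions merged over gaps of up to 3 kb. Genome windows were tiled without overlap from the start of each chromosome. All H3K4me3 regions of the window are named, and H3K27me3 regions where they form a border, touch H3K4me3, or are among the 3 widest or highest-scoring. Other regions were named after their values had been seen. Promoters are from RefSeq (GRCm38.p6), where all 3 genes matched by symbol. The tools were bedtools 2.31.1, SciPy 1.17.1, pandas 2.3.3, matplotlib 3.10.9, NumPy 2.4.6 and Python 3.11.15. Covered base pairs differed from those of bedtools at 0 H3K4me3 regions, and the interval code was tested on simulated data.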

Additional observations from a re-analysis of the deposited data

How the results depend on the processing

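The count of H3K4me3 regions with H3K27me3, 4 of 5, stayed between 3 and 5 under 6 other settings. It was 3 with at least 50% coverage required, 5 of 5 with H3K27me3 merged, and 5 of 6 with the window wider by 50 kb on each side. Among regions at the top score, an alternative chosen after seeing the data, it was 1 of 1. Over all H3K4me3 regions, 25.3% had at least 50% coverage. The share over all regions is not given for the other settings, under which it may change too. These counts therefore do not show how the locus stands beside the list there. The share of H3K4me3 base pairs covered, 36.9%, was 20.8% with at least 50% coverage required, 44.6% with merged regions, 41.6% in the wider window, 33.2% both in the upper 50% of H3K27me3 regions by score and at a score of at least 100, and 22.5% for the top-scoring region alone. It was unchanged when 200 bp had to be shared. H3K27me3 covered 18.8% of the window in the upper 50% by score, 19.8% at a score of at least 100 and 22.6% in the wider window. The domain of 38.6 kb was 22.5 kb long in the upper 50% by score, at a score of at least 100 and with a merging gap of 1 kb. It was unchanged at 5 kb and was 95.1 kb long at 10 kb. Its rank was not computed under these settings. Windows with at least the coverage of the locus, 6.04%, made up 6.49% in the upper 50% by score and 6.34% at a score of at least 100. They made up 6.08% with the tiling shifted by 50% of the window length and 6.43% on the autosomes only. No paired analysis was possible because there is 1 library for either mark. Unknown depth limits every statement about a place without a region.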
